A study of Mus musculus with 8 samples.

Results

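The genes of the vascular endothelial growth factor (VEGF) and angiopoietin system were followed in pancreatic islets of mice with and without an induced knockdown of the IGF-1 receptor gene, Igf1r, in β-cells. The members were chosen by name: the ligands Vegfa, Vegfb, Vegfc and Angpt2, the receptors Kdr, Flt1, Flt4 and Tek, and the coreceptors Nrp1 and Nrp2. They are 10 of the 53012 genes in the deposited table, and all 10 were among the 15474 genes with enough reads to be tested. RNA-seq had been performed on islets of 8 mice aged 17 months, with 1 library per mouse and 4 mice per group. βIgf1r mice (CTRL; M148, M151, M152 and M153) carried floxed Igf1r alleles without Cre (Ins1-CreERT2-/-) and received corn oil. βIgf1rKD mice (KD; M145, M146, M149 and M150) carried the same floxed alleles with Ins1-CreERT2+/- and received tamoxifen in corn oil at 0.075 mg/g body weight, injected 5 times at intervals of 24 hours. Islets were taken 7 days after the last injection, both groups held both sexes, and the sex of each mouse was not marked. Both groups thus shared the floxed alleles around exon 3, and the presence of Cre, the tamoxifen and the loss of Igf1r cannot be told apart. The insulin promoter directs Cre to β-cells, whereas the receptors described here are known mainly from endothelial cells. Recombination in single cell types was not measured in these data.

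VEGF-A is made by islet endocrine cells and acts on the dense capillary network of the islet, where it maintains the fenestrated endothelium through which hormones enter the blood. KDR is its main signalling receptor on endothelial cells, FLT1 binds VEGF-A and VEGF-B tightly and can act as a decoy, FLT4 is the receptor of VEGF-C, and neuropilins present the ligands to these receptors. In the angiopoietin branch, ANGPT1 from mural and stromal cells activates the endothelial receptor TIE2, the product of Tek, while ANGPT2 is made by endothelial cells and can oppose it.

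Total estimated counts lay between 21634080 and 31202154 in CTRL mice and between 23826023 and 42391328 in KD mice. The defining β-cell markers took 10.2% to 22.4% of the counts of a mouse, and acinar markers, from exocrine tissue carried over with the islets, took 1.93% to 14.0% in CTRL mice and 4.01% to 16.2% in KD mice. Igf1r itself was at 53.6 ± 7.21 CPM (counts scaled to library size with TMM factors, mean ± SD, n = 4) in CTRL and 50.7 ± 4.996 CPM in KD mice, a log2 fold change of -0.08 ± 0.11 (SE; edgeR adjusted p = 0.988). Gene counts do not show the loss of exon 3 by itself. A gene was called when its edgeR p-value, adjusted over all genes by the Benjamini-Hochberg method, was under 0.05. Genes that passed an unadjusted threshold, p under 0.05, were counted beside it. No gene was called (0% of 15474), whereas 637 genes (4.12%) passed the unadjusted threshold, 292 (1.89%) of them lower in KD mice. With limma-voom 1 gene and with DESeq2 8 genes were called. The mice of the groups did not overlap in 344 genes (2.22%), of which 196 (1.27%) were lower in KD mice. By the sign of the log2 fold change alone, 7388 genes (47.7%) were lower and 8086 higher in KD mice.

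Among the 10 members, the smallest p-values belonged to 3 of the 4 receptors, with Kdr, Flt1 and Tek lower by 21.1% to 23.2% in KD islets. Of the members, 4 had an unadjusted p under 0.05, against 4.12% of all genes: Kdr, Flt1 and Tek were lower, against 1.89%, and Vegfb was higher. The groups did not overlap in 2 members, Kdr and Flt1, both lower in KD mice, against 2.22% of all genes in either direction and 1.27% in this direction. None of the 10 was called after adjustment, as was none of all genes (0%). The median log2 fold change was -0.08 over the 10 members, -0.36 over the 4 receptors, 0.02 over the 4 ligands and -0.08 over the 2 coreceptors, beside 0.01 over all genes tested. The members are not independent of each other, since several are expressed by the same cells. They were also chosen with earlier results of these data known, so the shares set against all genes are descriptions.

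**Figure D1:**
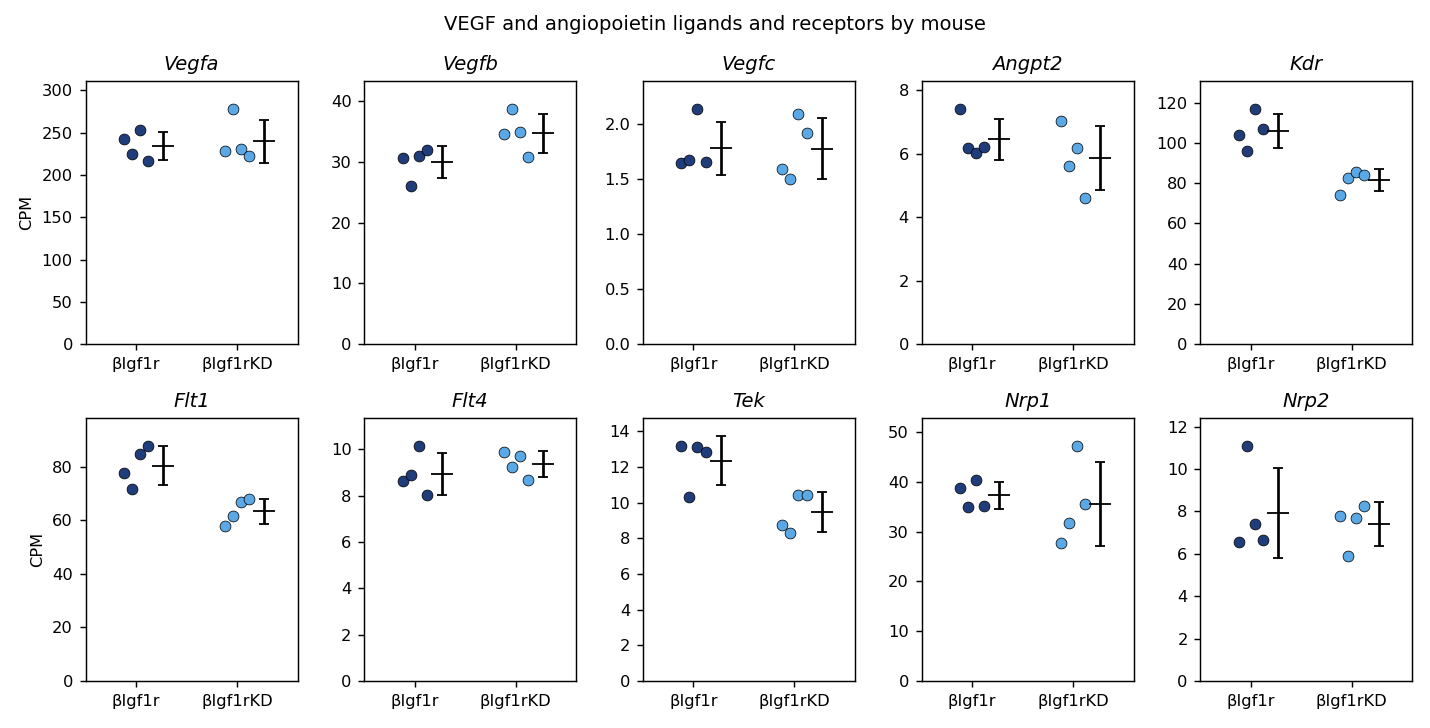
Level of each of the 10 members in each mouse, in CPM on axes that start at 0, with CTRL and KD mice side by side and the mean and SD of each group of 4. The CTRL and KD points of Kdr and Flt1 are separate, those of Tek touch only through the CTRL mouse M151, and those of the other members overlap.

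The members spanned a wide range of levels. Divided by the length of the gene's exons, Vegfa was highest at 54.6 ± 3.78 CPM per kilobase (n = 4 CTRL mice), followed by Vegfb at 18.7 ± 1.64 CPM per kilobase. The most abundant receptor per length was Kdr at 11.7 ± 0.95 CPM per kilobase, before Flt1 at 5.95 ± 0.54 CPM per kilobase and the coreceptor Nrp1 at 3.81 ± 0.28 CPM per kilobase. Tek followed at 2.62 ± 0.29, Angpt2 at 1.75 ± 0.17 and Flt4 at 1.08 ± 0.11 CPM per kilobase. Vegfc at 0.727 ± 0.097 and Nrp2 at 0.669 ± 0.18 CPM per kilobase were lowest, and this was the only neighbouring pair in the order whose CTRL mice overlapped. With the longest transcript in place of all exons the order of Flt1 and Nrp1 was no longer separate (11.7 and 10.2 CPM per kilobase). Nrp2 at 1.18 then stood above Vegfc at 0.727 CPM per kilobase, and its CTRL mice overlapped those of Flt4 at 1.43 CPM per kilobase.

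Kdr (ENSMUSG00000062960, GRCm38 chr5:75932827-75978458, minus strand) had the smallest p of the 10 members. Its levels were 104, 96.0, 117 and 107 CPM in the CTRL mice M148, M151, M152 and M153 and 73.9, 82.5, 85.6 and 84.1 CPM in the KD mice M145, M146, M149 and M150. Every KD mouse lay below every CTRL mouse, and the lowest of all was M145. The mean was 106 ± 8.60 CPM in CTRL and 81.5 ± 5.26 CPM in KD mice, a fold of 0.771 and a log2 fold change of -0.38 ± 0.084 (95% interval -0.56 to -0.19, edgeR adjusted p = 0.987). Its unadjusted p ranked 8 among the genes tested, that of Flt1 21 and that of Tek 114. Islets were measured whole, so that fewer endothelial cells and less receptor RNA in each of them cannot be told apart, here and for the other endothelial genes below.

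Flt1 (ENSMUSG00000029648, GRCm38 chr5:147561604-147726011, minus strand), which encodes both the membrane receptor and a secreted form that gene counts do not separate, showed the same picture. Its levels were 77.6, 71.5, 84.6 and 87.7 CPM in the CTRL mice and 57.7, 61.6, 66.6 and 67.7 CPM in the KD mice, in the order of mice used for Kdr. The groups did not overlap, with the highest KD mouse, M150, below the lowest CTRL mouse, M151. The mean was 80.4 ± 7.26 CPM in CTRL and 63.4 ± 4.66 CPM in KD mice, a log2 fold change of -0.34 ± 0.087 (95% interval -0.54 to -0.15, edgeR adjusted p = 0.987).

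Tek (ENSMUSG00000006386, GRCm38 chr4:94739289-94874976, plus strand), the angiopoietin receptor, was lower by a similar amount from a smaller number of reads, 187 to 495 per mouse. Its levels were 13.2, 10.3, 13.1 and 12.8 CPM in the CTRL mice and 8.75, 8.32, 10.4 and 10.4 CPM in the KD mice. A single CTRL mouse, M151, lay within the KD range, and the other CTRL mice lay above it. The log2 fold change was -0.38 ± 0.12 (95% interval -0.66 to -0.10, edgeR adjusted p = 0.987), from 12.4 ± 1.39 to 9.49 ± 1.11 CPM.

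Flt4 (ENSMUSG00000020357, GRCm38 chr11:49609263-49652739, plus strand) was the receptor without such a difference. Its levels were 8.62, 8.91, 10.2 and 8.01 CPM in the CTRL mice and 9.87, 9.25, 9.71 and 8.66 CPM in the KD mice, with all KD mice inside the CTRL range. The log2 fold change was 0.07 ± 0.11 (95% interval -0.17 to 0.31, edgeR adjusted p = 0.988). FLT4 marks lymphatic as well as fenestrated blood endothelium, and of 5 lymphatic markers only Lyve1 and Reln had enough reads to be tested.

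The 3 receptors that were lower together are shown with the sequence upstream of their start sites, because endothelial genes share binding sites of ETS factors, whose core is GGAA. RefSeq windows of GRCm38.p6 matched 9 of the 10 members, and Angpt2 was the other. The 250 bases before the annotated start are printed 5′ to 3′ on the strand of the gene for Kdr (chr5:75978456-75978705, minus strand), Flt1 (chr5:147726012-147726261, minus strand) and Tek (chr4:94739039-94739288, plus strand), and capitals mark GGAA or its reverse complement.
Kdr: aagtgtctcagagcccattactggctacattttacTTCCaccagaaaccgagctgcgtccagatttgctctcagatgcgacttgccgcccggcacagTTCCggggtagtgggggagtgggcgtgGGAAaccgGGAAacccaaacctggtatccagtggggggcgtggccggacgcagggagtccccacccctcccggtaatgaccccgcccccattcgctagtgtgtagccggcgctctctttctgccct
Flt1: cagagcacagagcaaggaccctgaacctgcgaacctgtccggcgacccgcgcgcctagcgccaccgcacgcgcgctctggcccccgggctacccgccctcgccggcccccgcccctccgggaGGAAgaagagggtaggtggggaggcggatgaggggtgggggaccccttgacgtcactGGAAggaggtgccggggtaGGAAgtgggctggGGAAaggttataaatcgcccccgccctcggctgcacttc
Tek: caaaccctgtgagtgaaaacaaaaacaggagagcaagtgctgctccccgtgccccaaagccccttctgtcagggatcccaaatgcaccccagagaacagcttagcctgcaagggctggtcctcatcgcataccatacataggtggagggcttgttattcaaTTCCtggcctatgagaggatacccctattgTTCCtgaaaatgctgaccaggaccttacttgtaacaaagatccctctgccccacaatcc

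The core GGAA was found 4 times in the Kdr window, 4 times in the Flt1 window and 2 times in the Tek window, on either strand. Among the other members it was found 6 and 2 times in separate windows of Vegfa, 4 times in Nrp1 and 2 times in Flt4. Nrp2, Vegfc and Vegfb had 1 match each. The core was also present in 93.4% of the 32851 windows of this length in the genome, with a median of 3 matches, so its presence sets these genes apart from few others. The windows differed in composition, with 61.6% G and C in Kdr, 70.4% in Flt1 and 51.2% in Tek beside a median of 52.4% over all windows. The GC box GGGCGG occurred 2 times in Kdr, 3 times in Flt1 and 0 times in Tek, beside 32.7% of all windows with at least 1. The longer form CAGGAA, which contains the GGAA core, occurred 2 times in Tek and 0 times in Kdr and Flt1, beside 25.7% of all windows. It also occurred 1 time in Nrp2 and 1 time in the Vegfa window with 6 GGAA matches. The hypoxia response core was searched as ACGTG, found in none of the 3 windows beside 16.6% of all, and as GCGTG, found 2 times in Kdr, 1 time in Flt1 and 0 times in Tek beside 28.2% of all. The forkhead core TGTTTA was in none of the 3 windows, beside 12% of all. All motifs were searched on both strands, and a match describes letters only.

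The coreceptors did not differ beyond the spread between mice. Nrp1 (ENSMUSG00000025810, GRCm38 chr8:128358604-128503363, plus strand), which presents VEGF-A to KDR and also binds semaphorins, was at 38.7, 34.9, 40.5 and 35.1 CPM in the CTRL mice and 27.8, 31.7, 47.2 and 35.6 CPM in the KD mice. The KD mice spread more widely and enclosed the CTRL range, M145 being lowest and M149 highest. The log2 fold change was -0.07 ± 0.15 (95% interval -0.40 to 0.27, edgeR adjusted p = 0.989). M149 also had the highest summed level of the fibroblast markers, 263 CPM against 18.8 to 117 CPM in the other mice, and of the macrophage markers, 198 CPM against 97.6 to 125 CPM, and the part of these cells in its Nrp1 level was not tested.

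Nrp2 (ENSMUSG00000025969, GRCm38 chr1:62703285-62818695, plus strand), the neuropilin that pairs with FLT4, was at 6.58, 11.1, 7.41 and 6.64 CPM in the CTRL mice and 7.77, 5.89, 7.71 and 8.24 CPM in the KD mice. The CTRL mouse M151 stood above all others, and the remaining mice of both groups overlapped. The log2 fold change was -0.10 ± 0.19 (95% interval -0.53 to 0.33, edgeR adjusted p = 0.989), and without M151 it was 0.11.

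Among the ligands, Vegfa (ENSMUSG00000023951, GRCm38 chr17:46016993-46032369, minus strand) was by far the most abundant and nearly equal between the groups. Its levels were 242, 225, 253 and 217 CPM in the CTRL mice and 229, 277, 231 and 222 CPM in the KD mice. All KD mice but M146, the highest of all, lay within the CTRL range. The mean was 234 ± 16.2 CPM in CTRL and 240 ± 25.4 CPM in KD mice, a log2 fold change of 0.03 ± 0.10 (95% interval -0.20 to 0.27, edgeR adjusted p = 0.992). Vegfa had 4570 to 9093 counts per mouse. The gene has 13 annotated transcripts, whose isoforms differ in how they bind the matrix, and gene counts do not separate them.

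Vegfb (ENSMUSG00000024962, GRCm38 chr19:6982473-6987651, minus strand), a ligand of FLT1 and NRP1 but not of KDR, was the only member that was higher in KD mice with an unadjusted p under 0.05. Its levels were 30.7, 26.1, 31.0 and 32.04 CPM in the CTRL mice and 34.6, 38.7, 34.9 and 30.8 CPM in the KD mice. The KD mouse M150 lay within the CTRL range and the other KD mice above it. The log2 fold change was 0.21 ± 0.095 (95% interval 0.00 to 0.43, edgeR adjusted p = 0.987). The unadjusted p lay just under the threshold of 0.05, and it stayed there in 4 of 16 alternative fits. Of the 8 fits that left out a mouse only those without M153 or M150 kept it there.

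Vegfc (ENSMUSG00000031520, GRCm38 chr8:54077606-54187096, plus strand), the lymphangiogenic ligand, had only 34 to 78 counts per mouse. Its levels were 1.65, 1.67, 2.14 and 1.66 CPM in the CTRL mice and 1.59, 1.5, 2.09 and 1.92 CPM in the KD mice, which overlapped throughout. The 95% interval of the log2 fold change, -0.47 to 0.46 around -0.00, leaves room at this depth for a difference as large as that of Kdr (edgeR adjusted p = 1).

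Angpt2 (ENSMUSG00000031465, GRCm38 chr8:18690263-18741562, minus strand), the ligand that endothelial cells release from stores, was at 7.4, 6.18, 6.02 and 6.21 CPM in the CTRL mice and 7.02, 5.61, 6.18 and 4.61 CPM in the KD mice. M150 had the lowest level and M148 the highest, and the groups overlapped. The log2 fold change was -0.15 ± 0.15 (95% interval -0.49 to 0.19, edgeR adjusted p = 0.987). Angpt2 lies inside Mcph1 on the opposite strand without sharing an exon with it, and Mcph1 had 155 to 321 counts per mouse beside 131 to 278 for Angpt2.

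**Figure D2:**
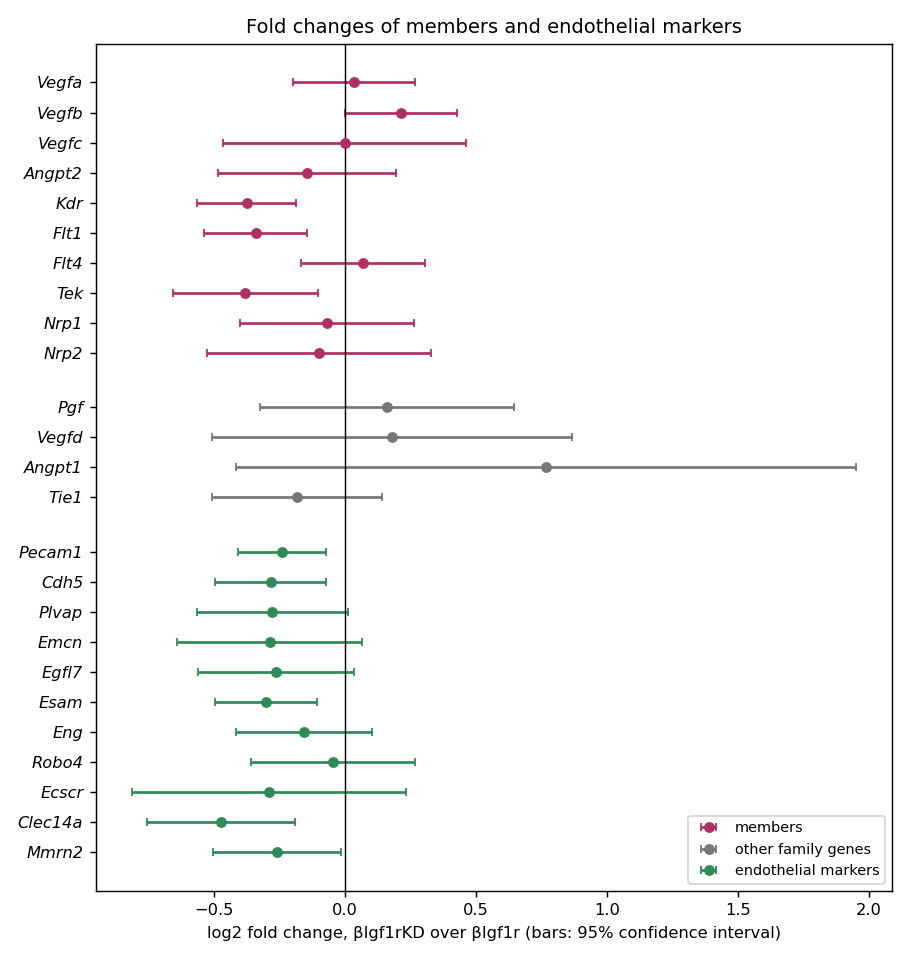
Log2 fold change of each member, KD against CTRL, of 4 other family genes and of the 11 tested endothelial markers, with the 95% interval from the edgeR fit to 4 and 4 mice. The intervals of Kdr, Flt1 and Tek lie below 0, that of Vegfb reaches to 0, and those of the other 6 members contain 0.

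The other ligands and receptors of the same families did not pass the unadjusted threshold. Pgf, which encodes placental growth factor, a further FLT1 ligand, was at 8.09 ± 2.14 CPM in CTRL and 9.05 ± 2.07 CPM in KD mice (log2 fold change 0.16 ± 0.22, edgeR adjusted p = 0.988). Tie1, the partner receptor of TIE2 on endothelial cells, was at 20.97 ± 3.73 and 18.5 ± 2.48 CPM (-0.18 ± 0.14, edgeR adjusted p = 0.987). Angpt1, the activating ligand of TIE2, had only 7 to 59 counts per mouse and was at 0.639, 0.764, 0.926 and 1.09 CPM in the CTRL mice and 2.34, 0.25, 1.79 and 1.46 CPM in the KD mice. Of the KD mice 3 lay above the CTRL range and M146 below it, giving a log2 fold change of 0.77 ± 0.53 (edgeR adjusted p = 0.987). M146 also had the lowest summed level of the fibroblast markers, 18.8 CPM, and their part in its Angpt1 level was not tested. Vegfd (9 to 23 counts) gave a log2 fold change of 0.18, and Angpt4 (2 to 9 counts) did not pass the filter.

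Markers of endothelial and other cell types were read beside the receptors. All 11 tested endothelial markers had a negative log2 fold change (median -0.28, range -0.47 to -0.05), against 47.7% of all genes. Of the 11, 5 had an unadjusted p under 0.05, against 1.89% of all genes in this direction. The groups did not overlap in 4, against 1.27% of all genes. In order of p, the 5 were Clec14a (-0.47), Esam (-0.30), Pecam1 (-0.24), Cdh5 (-0.28) and Mmrn2 (-0.26), all with an edgeR adjusted p = 0.987. Esam, Pecam1 and Cdh5 encode proteins of endothelial cell junctions, and the groups overlapped only in Mmrn2. Plvap, which forms the diaphragms of fenestrae, Emcn, Egfl7, Ecscr, Eng and Robo4 had log2 fold changes of -0.28, -0.29, -0.26, -0.29, -0.16 and -0.05. Cldn5, at 0 to 21 counts, was not tested. The endothelial list was chosen with earlier results of these data known, so its shares set against all genes are descriptions. Among the markers of other cells, all 12 acinar markers had a positive log2 fold change (median 0.88, 0 with an unadjusted p under 0.05), and 7 of 9 mural markers had a negative one (median -0.29). The β-cell marker Ins1 was lower in KD mice without overlap (-0.92), while Ins2 was at -0.08 and the median of the 8 β-cell markers was -0.07. Only KD mice carried Ins1-CreERT2+/-, and the part of this genotype in the Ins1 level was not tested. The part of the endothelial and other cell types in the receptor levels was not tested beyond the acinar and endothelial covariates. The summed level of the endothelial markers was 456, 341, 369 and 393 CPM in the CTRL mice and 318, 317, 351 and 316 CPM in the KD mice, overlapping through M151 and M149 (log2 difference -0.25, exact two-sided permutation p = 0.0571).

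Each member was therefore also expressed relative to the summed endothelial markers of the same mouse. On this scale the log2 difference of Kdr was -0.12 (exact permutation p = 0.286), that of Flt1 -0.09 (exact p = 0.429) and that of Tek -0.13 (exact p = 0.229), and the groups overlapped in all 3. Leaving out each mouse in turn gave -0.21 to -0.05 for Kdr, -0.18 to -0.04 for Flt1 and -0.19 to -0.08 for Tek. The receptors were thus not separated from the endothelial markers by these 8 mice, and a p above the threshold does not show that they were lower to the same degree. Flt4 per marker was higher in KD mice by 0.33 (exact permutation p = 0.0571), with only the CTRL mouse M152 reaching into the KD range. Without M152 the difference was 0.41 (exact permutation p = 0.0286), and without any other single mouse it was 0.23 to 0.39 (exact p = 0.0571 to 0.171).

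Of the ligands, Vegfb relative to the markers was at -3.70 ± 0.14 in CTRL and -3.23 ± 0.15 in KD mice on the log2 scale. Its groups did not overlap (difference 0.47, exact permutation p = 0.0286, the smallest that 4 against 4 mice allow). This was 1 of 10 such tests, without adjustment over them. The share of all genes that do not overlap on this scale was not computed. The difference was 0.28 for Vegfa (exact p = 0.0857), 0.24 for Vegfc (exact p = 0.2), 0.10 for Angpt2 (exact p = 0.543), 0.16 for Nrp1 (exact p = 0.343) and 0.18 for Nrp2 (exact p = 0.571). A rise of such a ratio can lie in its numerator or its denominator, and here the summed markers themselves were lower by 0.25.

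**Figure D3:**
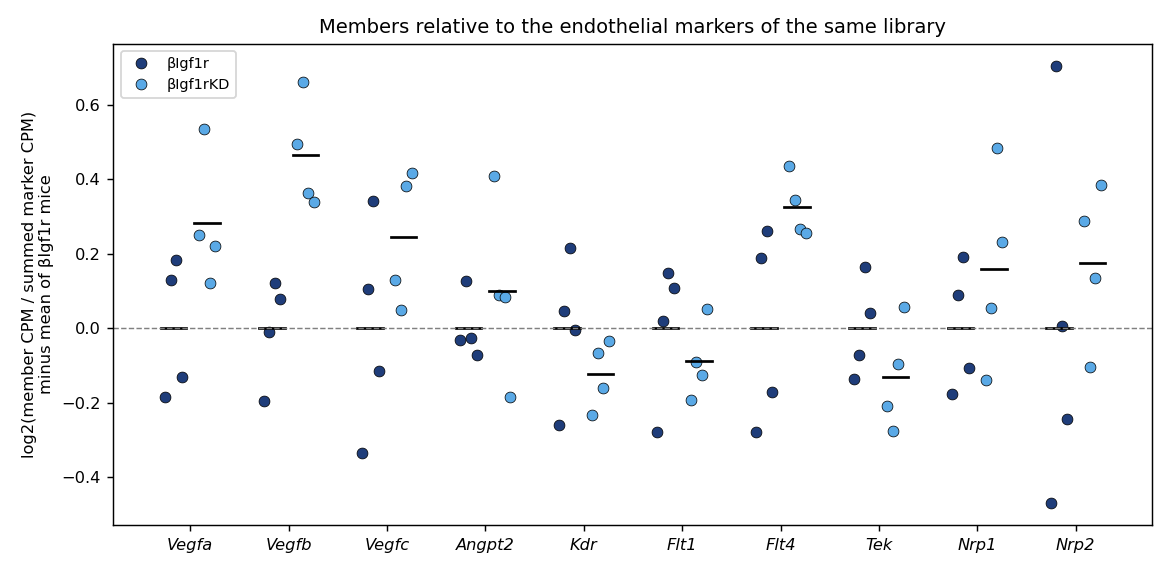
Log2 ratio of each member to the summed endothelial markers of the same mouse, less the mean of the CTRL mice, with 1 point per mouse and a line at the mean of each group of 4. The KD points of Vegfb lie above all CTRL points, while the points of Kdr, Flt1 and Tek overlap between the groups.

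The balance between ligand and receptor RNA was compared within each mouse in 8 ratios, which do not depend on library size. The log2 ratio of Vegfa to Kdr counts was 1.22, 1.23, 1.11 and 1.02 in the CTRL mice and 1.63, 1.75, 1.43 and 1.40 in the KD mice. The groups were separate, with a mean ratio of 2.21 Vegfa reads per Kdr read in CTRL and 2.93 in KD mice. The log2 difference was 0.41 (exact two-sided permutation p = 0.0286, adjusted over the 8 ratios 0.0762), and it lay between 0.34 and 0.46 when each mouse was left out.

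The ratio of Vegfb to Flt1 was separate between the groups as well, at -1.42 ± 0.057 in CTRL and -0.87 ± 0.21 in KD mice on the log2 scale (difference 0.55, exact permutation p = 0.0286, adjusted 0.0762). That of Nrp1 to Kdr was at -1.504 ± 0.081 and -1.22 ± 0.25 (difference 0.28, exact permutation p = 0.0286, adjusted 0.0762). Both had the receptor, lower in KD mice, as denominator. The Nrp1 ratio rested partly on M149, at -0.86, and the other KD mice lay at -1.41 to -1.24 beside -1.61 to -1.42 in CTRL mice. Without M149 its difference was 0.16 (exact permutation p = 0.0571), and without any single CTRL mouse it was 0.25 to 0.31 (exact p = 0.0857 to 0.143). For Vegfb to Flt1 the exact p was 0.0571 without any single CTRL mouse, with differences of 0.54 to 0.58. Leaving out a mouse cannot make separate groups overlap, so this does not test the separation of either ratio. The exact p rose because, with groups of unequal size, other splits of the mice gave differences at least as large. None of the 8 ratios passed 0.05 after adjustment. The exact p of the separate ratios, 0.0286, was the smallest that 4 against 4 mice allow. Their adjusted value therefore does not reflect how large the differences were.

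The 3 lower receptors were not separated from each other in ratio. Flt1 to Kdr was at a linear ratio of 0.759 in CTRL and 0.777 in KD mice (log2 difference 0.04, exact permutation p = 0.486). The ratio of Tek to Kdr, chosen after the values were seen, was 0.117 and 0.116 (log2 difference -0.01). That of Flt4 to Kdr, chosen in the same way, was -3.57 ± 0.13 in CTRL and -3.12 ± 0.16 in KD mice on the log2 scale and did not overlap (difference 0.45). The pair was picked for this pattern, so its values are a description.

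The remaining ratios overlapped between the groups. Angpt2 to Tek was at 0.523 in CTRL and 0.613 in KD mice (log2 difference 0.23, exact permutation p = 0.314). Angpt2 to Angpt1 was at 7.68 and 5.21 (-0.56, exact p = 0.514), with M146 far above the other KD mice. Without M146 the difference was -1.26 (exact permutation p = 0.0286), and without any other single mouse it was -0.70 to -0.29 (exact p = 0.457 to 0.771). Vegfc to Flt4 (-0.08, exact p = 0.571) and Nrp2 to Flt4 (-0.15, exact p = 0.571) were close to equal, and Vegfb to Vegfa, a ratio added after the values were seen, was 0.128 and 0.145 (log2 difference 0.18).

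Beyond the members, 79 further genes of the pathway were read from the same fit in 8 lists, and 73 of them were tested. Of these, 42 were lower and 31 higher in KD mice, beside 47.7% of all genes lower. The median log2 fold change of the 73 was -0.03 beside 0.01 over all genes. An unadjusted p under 0.05 was reached by 2, both lower, beside 4.12% of all genes, and the groups did not overlap in 0 of the 73. One was Ptprb, the endothelial phosphatase that dephosphorylates TIE2 and KDR, at 26.99, 33.4, 29.9 and 33.9 CPM in the CTRL mice and 21.2, 21.2, 26.4 and 28.1 CPM in the KD mice (-0.36 ± 0.12, edgeR adjusted p = 0.987). The other was Epas1, which encodes the hypoxia-inducible factor HIF-2α and is strongly expressed in endothelium, at 52.7 ± 4.99 CPM in CTRL and 45.6 ± 3.88 CPM in KD mice (-0.21 ± 0.091, edgeR adjusted p = 0.987).

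The medians of the lists ran from -0.15 to 0.17, and differences between lists were not tested. The counts of lower genes below stand beside 47.7% lower among all genes tested. Endothelial transcription factors had 8 of 12 genes lower (median -0.09), Notch and tip cell genes 7 of 11 (-0.15), and receptor partners and signalling genes 9 of 13 (-0.07). Class 3 semaphorins and plexins, the other partners of neuropilins, had 6 of 10 lower (-0.05). Genes of oxygen sensing had 3 of 8 lower (0.05) and hypoxia-inducible genes 7 of 9 lower (-0.06). Of the endogenous inhibitors of angiogenesis 1 of 6 was lower (0.17), as was 1 of the 4 tested family ligands and receptors (0.17). Apart from Ptprb and Epas1 no gene of these lists had an unadjusted p under 0.05.

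**Figure D4:**
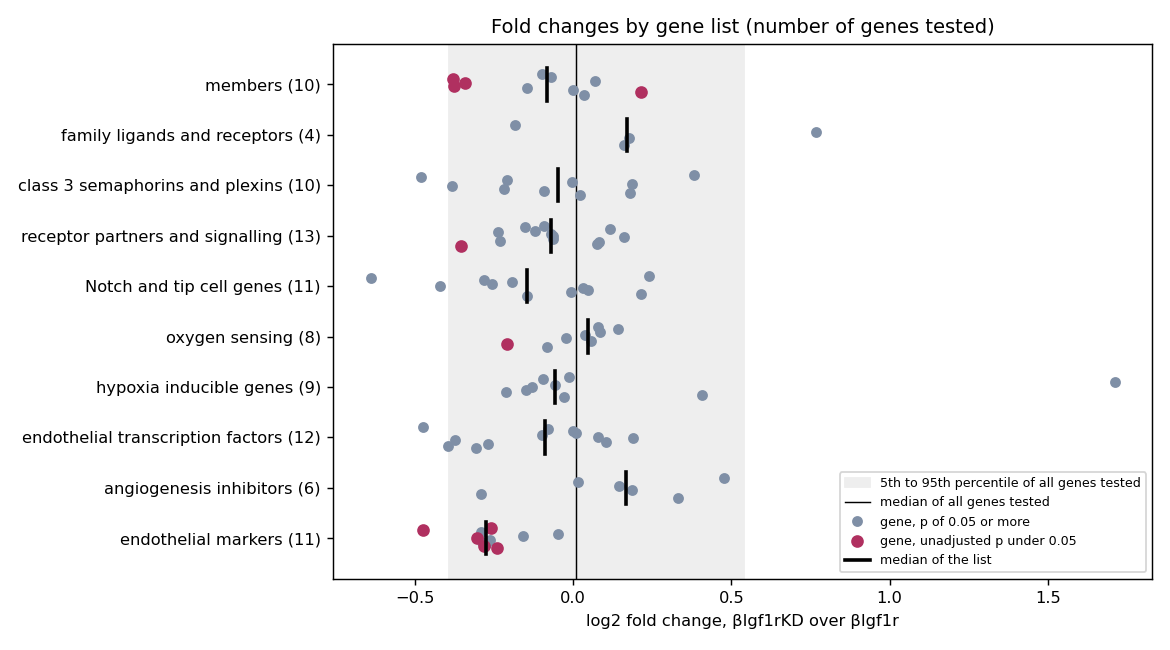
Log2 fold change, KD against CTRL, of each tested gene among the members, in the pathway lists and among the endothelial markers, with 1 point per gene (red where the unadjusted p was under 0.05) and a bar at the median of each list. All 11 endothelial markers lie below 0, while the genes of the pathway lists scatter on both sides, and the grey band spans the 5th to 95th percentile of all genes (-0.39 to 0.54).

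The genes most like a member in pattern over the 8 mice differed from member to member. For Vegfa they were Actr1b, Atf6b and Tbc1d17 (Pearson r = 0.977 each over 8 mice), and for Kdr they were Cfap44 (0.963), Ispd (0.946) and Sh2d3c (0.936). For Angpt2 they were Rrm2 (0.950), Ptges (0.943) and Tmem72 (0.936), and for Tek Cadps2 (0.977), C7 (0.963) and Shisa2 (0.953). The 8 mice of each correlation belong to 2 groups of 4, and a difference between the groups can raise r. For Vegfa and the genes like it the log2 fold changes were near 0 (0.035 for Vegfa, and 0.024, 0.001 and 0.019). The values of r are the highest among all genes tested, so these are descriptions.

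The receptor differences were recomputed in 16 alternative fits, among them 8 that each left out a mouse. Kdr ranged from -0.42 to -0.32, Flt1 from -0.39 to -0.27 and Tek from -0.46 to -0.16, all below 0. Each kept an unadjusted p under 0.05 in 15 of the 16. The exception for all 3 was the fit with the mean z-score of the endothelial markers as a covariate. There the log2 fold change was -0.34 for Kdr, -0.28 for Flt1 and -0.16 for Tek, and none of the 3 had an unadjusted p under 0.05. The SEs in that fit were 0.150, 0.156 and 0.199, larger than the 0.084, 0.087 and 0.123 of the reported fit, so it was less precise. Relative to the summed markers the differences were -0.12, -0.09 and -0.13, so for Kdr and Flt1 the covariate and the ratio gave unlike sizes. With the acinar markers as covariate Kdr was at -0.41, Flt1 at -0.39 and Tek at -0.45, and with Xist, a stand-in for the unmarked sex, at -0.32, -0.27 and -0.28.

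**Figure D5:**
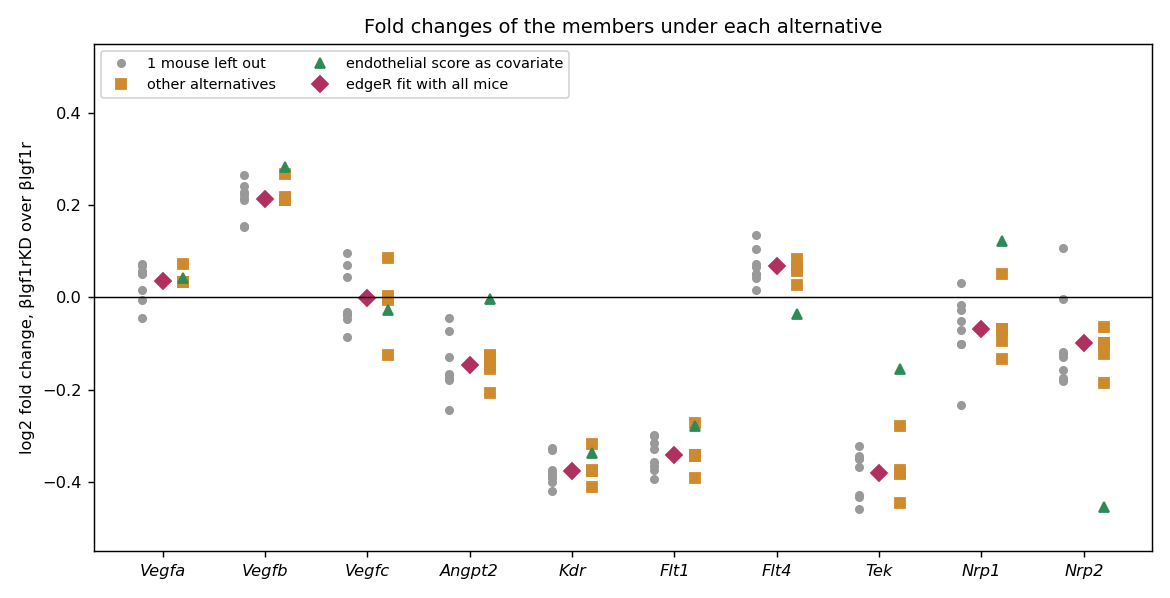
Log2 fold change of each member, KD against CTRL, in the reported edgeR fit and in the 16 alternative fits. Each point is 1 fit, with grey circles for fits that leave out a mouse and triangles for the endothelial covariate. The values of Kdr, Flt1 and Tek stay below 0 in all fits, with Tek nearest to 0 under the endothelial covariate, while those of Vegfa, Vegfc, Flt4, Nrp1 and Nrp2 fall on both sides of 0.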

How the data were processed

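RNA was measured in islets of 4 βIgf1r and 4 βIgf1rKD mice, grouped by the sample labels, and no mouse number is shared between the groups. The authors deposited estimated counts per gene and mouse, not scaled between mice, from stranded mRNA libraries. The submitters' processing notes name fastp, kallisto and GRCm38, and the annotation release is not given in the sources used here. Of the 53012 Ensembl identifiers 51906 were matched to symbols, with gene positions and exons taken from GENCODE M21 (GRCm38).

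Estimated counts were rounded to whole numbers. Genes with a count of at least 10, after scaling to library size, in at least 4 mice and a total of at least 15 were kept, and the groups were compared by the quasi-likelihood test of edgeR 4.0.16 in R 4.3.3 with TMM factors, without covariates, with Benjamini-Hochberg adjustment over all 15474 genes. Standard errors were the fold change divided by the root of F. Log2 CPM used a prior count of 2. Ratios were compared by exact two-sided permutation tests over the 70 assignments of 4 and 4 mice. The script was tested on simulated data. P-values measure the spread between mice of 1 cohort.

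The genes named are all members, Igf1r, the endothelial markers, the remaining family ligands and receptors, the pathway genes with an unadjusted p under 0.05 or without overlap, and the 3 genes most like each of Vegfa, Kdr, Angpt2 and Tek. Other genes and markers named in the text were chosen after their values were seen. The members and lists were chosen with earlier results of these data known. Alternatives were DESeq2 1.42.0, limma-voom (limma 3.58.1), RLE scaling in edgeR, other filters on low counts, acinar, endothelial or Xist covariates, and leaving out each mouse.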

Additional observations from a re-analysis of the deposited data

Results flagged for a closer look

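Of 56 sets of 4 mice, 6 held a mouse standing apart from the other 3 by Dixon's criterion (the gap to the nearest mouse over the range, compared with its 95% critical value), and chance gives about 1 in 20, or 2.8 sets. Vegfa was at 8.117 log2 CPM in the KD mouse M146 beside 7.80 to 7.85 in the other KD mice (ratio 0.830). Vegfc was at 1.142 log2 CPM in the CTRL mouse M152 beside 0.78 to 0.80 (ratio 0.947), from few counts. Angpt2 was at 2.901 log2 CPM in the CTRL mouse M148 beside 2.61 to 2.65 (ratio 0.848). Tek was at 3.374 log2 CPM in the CTRL mouse M151 beside 3.69 to 3.73 in the other CTRL mice (ratio 0.897), and this is the mouse through which the Tek groups overlap. The log2 ratio of Vegfb to Flt1 was -1.338 in the CTRL mouse M148 beside -1.45 in the other CTRL mice (ratio 0.973). The log2 ratio of Angpt2 to Angpt1 was 4.487 in the KD mouse M146 beside 1.58 to 1.79 in the other KD mice (ratio 0.929), resting on 7 Angpt1 counts in M146.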

How the results depend on the processing

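The sample labels give a mouse number and a group but no pairing of mice, so no paired analysis was made. The count of members with an unadjusted p under 0.05, 4 in the reported fit, was 0 with the endothelial covariate, under which the count over all genes went from 637 to 286, and the count after adjustment was 1 with DESeq2 (Kdr, adjusted p = 0.0474). The count of pathway genes, 2 as reported, was 4 without a filter, 1 with the acinar covariate, 8 with Xist, 1 with limma-voom, 4 with DESeq2 and 1 to 8 when each mouse was left out (8 without M152, 7 without M150, 5 without M149, 4 without M151 or M146, 1 without M148 or M145). The count over all genes moved too, from 637 to 1098 without a filter, 391 with the acinar covariate, 1143 with Xist, 565 with limma-voom, 701 with DESeq2 and 383 to 1114 when each mouse was left out (1114 without M152). Igf1r turned from -0.08 to 0.023 with Xist. Of the ratios to the endothelial markers 1 to 2 had an exact p under 0.05 when each mouse was left out, the second without the CTRL mouse M152. Of the 8 ligand and receptor ratios 1 to 4 did, 1 without any single CTRL mouse and 4 without the KD mouse M146. Separate groups cannot come to overlap when a mouse is left out, so separation was not tested in this way. No share over all genes was computed for these ratios. Members with fold changes near 0 turned sign: Vegfc with Xist (0.085) and limma-voom (0.003), Nrp1 with the endothelial covariate (0.123) and Xist (0.050), and Flt4 with the endothelial covariate (-0.036). Leaving out each mouse gave -0.044 to 0.073 for Vegfa, -0.086 to 0.097 for Vegfc, -0.233 to 0.032 for Nrp1, -0.181 to 0.107 for Nrp2, -0.003 to 0.195 for Angpt2 over the endothelial markers and -0.245 to 0.021 for Nrp2 to Flt4. The causes were not tested. Vegfc had 34 to 78 and Angpt1 7 to 59 counts per mouse, so counting error is larger for them than for genes with more counts, and for Angpt1 the KD mice also spread from 0.25 to 2.34 CPM.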

Other observations

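Mural cells, which wrap the islet capillaries, were measured through 9 tested markers. Of these, 7 were lower in KD mice (median log2 fold change -0.29), beside 47.7% of all genes. The pericyte genes Kcnj8 (-0.53) and Rgs5 (-0.31) had an unadjusted p under 0.05, against 1.89% of all genes in this direction, with an edgeR adjusted p = 0.987 for both. Both were named after their values were seen. All 7 macrophage markers had a positive log2 fold change (0.02 for C1qa), and 2 of them, C1qb (0.54) and C1qc (0.66), had an unadjusted p under 0.05, against 4.12% of all genes in either direction. The mouse M149 stood highest, with a summed level of 198 CPM, while the other KD mice lay at 97.6 to 117 CPM beside 99.6 to 125 CPM in CTRL mice.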
